A study of Homo sapiens and Mus musculus with 213 samples.

Results

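The genes examined here are 32 long noncoding RNA genes that carry small nucleolar RNAs (snoRNAs) inside them, measured in human embryonic kidney (HEK293T) cells edited at the promoter of the transcription factor gene *MYC*. The 32 genes are those with a GENCODE symbol of the form SNHG followed by a number, and *GAS5*, *DANCR*, *ZFAS1* and *EPB41L4A-AS1*. They were picked by symbol out of 58336 genes listed in each RNA-seq library, with earlier results of these data known. The RNA of 2 cell lines is described, with 3 libraries each. MYC WT cells carry the unedited promoter. In MYC MUT cells, point mutations in every G-run of a G-rich promoter motif prevent it from folding into a G-quadruplex (G4). A G4 is a DNA structure of stacked guanines. Both lines are HEK293T, and MYC MUT was made with CRISPR and grown from single-cell clones. The labels do not say which clone gave the RNA, so an effect of the edit and of the clone cannot be told apart. The samples of a line are numbered Bio1 to Bio3, and nothing further says how separate the cultures were. P-values therefore measure the spread between these samples.

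A snoRNA host gene makes a guide RNA and a spliced RNA from the same transcript. Its introns release snoRNAs, which sit in the nucleolus and guide enzymes to ribosomal RNA: box C/D snoRNAs direct methylation of the ribose, and box H/ACA snoRNAs direct the change of uridine to pseudouridine. A related class, the small Cajal body RNAs (scaRNAs), guides the same changes on the RNAs of the splicing machinery. The exons are joined into a spliced RNA that in many hosts starts with a terminal oligopyrimidine (TOP) tract, as in the mRNAs of ribosomal proteins, and is often removed from the cytoplasm by nonsense-mediated decay. *MYC* is best known for driving the genes of ribosome production, to which many snoRNA hosts belong. The libraries were made from poly(A)-selected RNA, so they chiefly report the spliced host RNA and not the snoRNAs.

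Since the TOP start is the sequence feature for which these hosts are known, it was looked up for each member. RefSeq promoter windows on GRCh38.p14, which run from 250 bases before the annotated start to 50 after it, were matched by symbol for 28 of the 32 members. *SNHG6*, *SNHG9*, *SNHG15* and *SNHG25* had no entry. A start was called TOP when its first base was C and was followed by at least 4 further pyrimidines, on the strand of the gene. By this rule 7 of the 28 members had a TOP start, which is 25% of them, against 4.07% of all 35116 promoters. The 6 of these that are expressed here are shown first, followed by 4 members without a TOP start that differed between the lines. Each line gives 10 bases before the annotated start and 20 from it, 5′ to 3′ on the strand of the gene, with the pyrimidine run that begins at the start in capitals.
SNHG4, chr5:139274091-139274120, plus strand: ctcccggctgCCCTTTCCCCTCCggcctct
SNHG12, chr1:28581854-28581883, minus strand: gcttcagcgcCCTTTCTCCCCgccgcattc
SNHG19, chr16:2155339-2155368, minus strand: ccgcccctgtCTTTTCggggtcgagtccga
SNHG32, chr6:31834906-31834935, plus strand: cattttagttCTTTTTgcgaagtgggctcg
SNHG5, chr6:85678714-85678743, minus strand: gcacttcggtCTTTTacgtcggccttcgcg
ZFAS1, chr20:49278632-49278661, plus strand: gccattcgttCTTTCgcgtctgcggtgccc
SNHG3, chr1:28505933-28505962, plus strand: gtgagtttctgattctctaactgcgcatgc
SNHG21, chr15:82750554-82750583, plus strand: cggaaagagagtggatttactaggaaggtg
SNHG11, chr20:38446644-38446673, plus strand: gctctaggctgcagccgcgcccccagccgt
SNHG8, chr4:118278752-118278781, plus strand: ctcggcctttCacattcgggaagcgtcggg

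The pyrimidine runs were 13 bases long at *SNHG4*, 11 at *SNHG12*, 6 at *SNHG19* and *SNHG32*, and 5 at *SNHG5* and *ZFAS1*. The seventh TOP start belonged to *SNHG18*, which had no read in any of the 6 libraries. The rule reads 1 annotated start per gene and says nothing of other starts in use. The palindrome CACGTG, the core of the E-box to which MYC binds, reads the same on both strands. It was present in the windows of 2 of the 28 members, *SNHG7* at 122 and *SNHG30* at 65 bases before the start. That is 7.14% of members and 7.26% of all promoters.

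Each library held between 68170323 and 79913764 reads on genes. *MYC* itself, the targeted gene, stood at 20020, 28396 and 21580 normalized counts in MYC WT and 10693, 11176 and 12400 in MYC MUT. All 3 MYC MUT libraries were below the lowest of MYC WT, with a log2 fold change of −1.02 (SE 0.19, adjusted p = 0.00182). Of 7 embryonic kidney genes 6 averaged at least 10 counts (not *PAX8*), and their sum was 16910 to 17590 in MYC WT and 22350 to 23320 in MYC MUT. Neuronal genes, which HEK293T cells are known to express, summed to 19780 to 21590 and 23500 to 24750, with *STMN2* and *ELAVL4* averaging under 10. Fibroblast genes summed to 1088 to 1267 and 1907 to 2006, without *COL1A2* and *DCN*. Blood genes stayed at 108 counts or fewer and pluripotency genes (*NANOG*, *POU5F1*, *PRDM14*) at 1.94 or fewer in every library. Among the blood genes *PTPRC*, *CD3E* and *HBB* averaged under 10. The marker lists moved with the lines, and their part in the results below was not tested. A sequencing pool is named in the columns of MYC WT and not in those of MYC MUT. Whether MYC MUT was sequenced in another pool is not stated, and if it was, line and pool cannot be told apart.

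Of the 32 members, 28 averaged at least 10 normalized counts over the libraries of the fit and were tested, among 20884 tested genes. *SNHG18*, *SNHG27* and *SNHG28* had no read in any of the 6 libraries, and *SNHG14*, the very long host in the Prader-Willi region, had 3 reads in all. A normalized count is the number of reads on a gene after the libraries were scaled to one another. To compare genes, counts were divided by the merged exon length, which counts every annotated exon and so lowers the value of genes with long rare isoforms. On this scale the 4 most abundant members were *SNHG29* (mean of 4881 per kb over the 6 libraries), *SNHG32* (3008 per kb), *SNHG1* (2425 per kb) and *GAS5* (2291 per kb). At the other end were *SNHG26* (19.4 per kb), *SNHG31* (11.8 per kb) and *SNHG22* (5.48 per kb), and every other tested member lay between 146 per kb (*SNHG10*) and 2254 per kb (*SNHG3*). In total the members took 0.188% to 0.219% of the reads in MYC WT and 0.170% to 0.179% in MYC MUT. The whole list was therefore a smaller part of the library in each MYC MUT library than in any MYC WT library, and in bulk RNA a lower level per cell and a smaller share of cells with the RNA cannot be told apart.

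**Figure D1:**
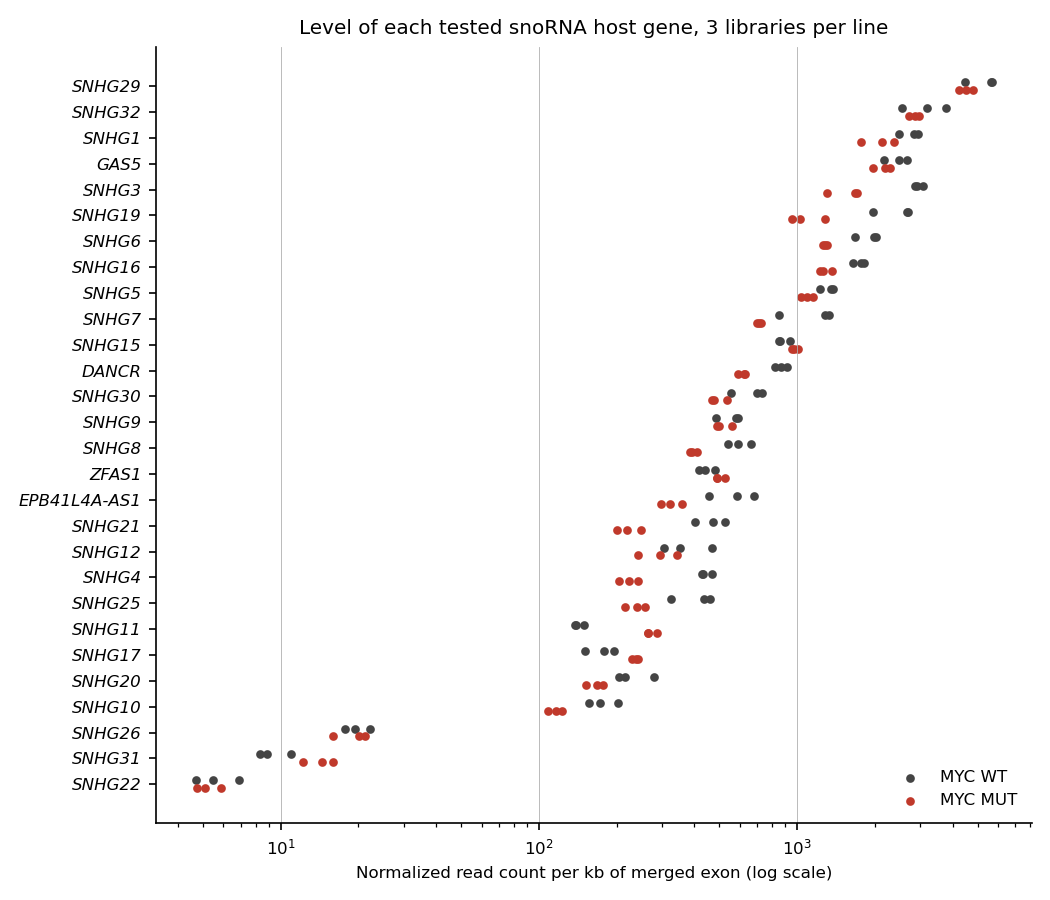
Normalized read count per kb of merged exon (log scale) for the 28 tested members, ordered by their mean, with 1 point for each of the 3 libraries of MYC WT (dark) and MYC MUT (red). *SNHG29* leads at 4881 per kb on average, *SNHG10* follows the other members at 146 per kb, and *SNHG26*, *SNHG31* and *SNHG22* lie far below them.

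The comparison asks how the host genes stood in cells without the *MYC* G4. In MYC MUT against MYC WT, 10 of the 28 tested members were called lower and 1 was called higher, where a called gene has an adjusted p (limma) below 0.05 together with more than 0.5 of log2 change in either direction. The 10 make up 35.7% of the tested members, against 10.1% of all tested genes called lower. The 1 called higher makes up 3.57%, against 11.3% of all tested genes called higher. The members called lower were *SNHG3*, *SNHG4*, *SNHG6*, *SNHG7*, *SNHG8*, *SNHG10*, *SNHG19*, *SNHG21*, *SNHG25* and *EPB41L4A-AS1*, and the one called higher was *SNHG11*. A further 6 were lower by the adjusted p alone, with log2 fold changes inside 0.5, and 1, *SNHG17*, was higher in the same way. The median log2 fold change of the tested members was −0.41, with 23 of 28 below 0, beside −0.0034 for all tested genes. For 16 members the MYC MUT values were all under the MYC WT values, and for 5 they were all over them. The same held for 26.4% and 25.9% of all tested genes.

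**Figure D2:**
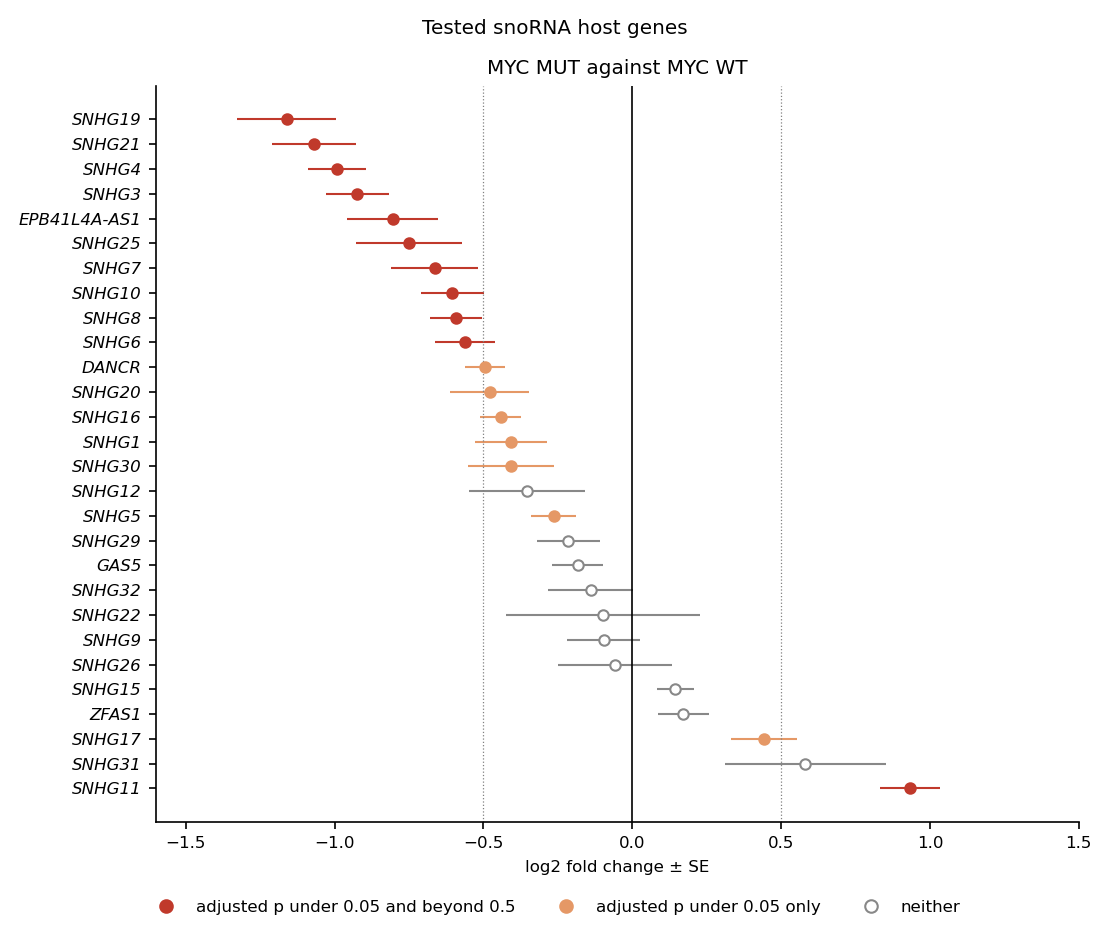
log2 fold change of MYC MUT against MYC WT with its standard error for the 28 tested members, in order of the value; red points passed the adjusted p of 0.05 and lay beyond 0.5 (dotted lines), orange points passed the adjusted p alone, and open points neither. *SNHG11* is the 1 red point above 0, and the 10 below 0 reach to *SNHG19* at −1.16.

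Hosts of box H/ACA snoRNAs made up 11 of the tested members, of which 5 were called lower and 1 higher in MYC MUT. *SNHG3* (chr1:28505980-28510892, plus strand) carries SNORA73A and SNORA73B, also known as U17, which act in the cutting of the ribosomal RNA precursor. Its normalized counts were 11694, 11890 and 12536 in MYC WT and 6869, 6958 and 5344 in MYC MUT. The lines were far apart, with no overlap. In MYC MUT the count was 46.9% lower (log2 fold change −0.92, SE 0.11, adjusted p = 6.4e-05).

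*SNHG4* (chr5:139274102-139284899, plus strand) carries SNORA74A and SNORA74D and has the longest TOP run among the expressed members. It stood at 1938, 2089 and 1920 counts in MYC WT and 996, 1081 and 917 in MYC MUT. The libraries of each line lay close together and the lines did not overlap. MYC MUT was 49.7% below MYC WT (log2 fold change −0.99, SE 0.097, adjusted p = 2.25e-05).

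*EPB41L4A-AS1* (chr5:112160526-112164818, plus strand) is the host of SNORA13 and lies antisense to *EPB41L4A*. Its counts were 1957, 2916 and 2520 in MYC WT and 1380, 1533 and 1272 in MYC MUT. MYC WT spread more widely, and its lowest library was still above all of MYC MUT. The log2 fold change was −0.81 (SE 0.15, adjusted p = 0.00182).

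*SNHG7* (chr9:136721366-136728184, minus strand) carries SNORA17A and SNORA17B. MYC WT libraries read 4161, 6248 and 6499 counts and MYC MUT libraries 3491, 3537 and 3434. MYC MUT was tightly grouped below all of MYC WT, in which replicate 1 was the low one. The log2 fold change was −0.66 (SE 0.15, adjusted p = 0.00438).

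*SNHG8* (chr4:118278703-118285316, plus strand), the host of SNORA24, was at 3580, 3915 and 4388 counts in MYC WT and 2554, 2717 and 2585 in MYC MUT. The lines did not overlap, and the log2 fold change was −0.59 (SE 0.088, adjusted p = 0.000383).

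Exons of several of these genes overlap those of a gene on the other strand. The overlap covered 51.25% of the exon length of *EPB41L4A-AS1* (with *EPB41L4A*), 37.6% of *SNHG8* (with *PRSS12*) and 30.3% of *SNHG7* (with *DIPK1B*). Over both lines *EPB41L4A* averaged 570 counts, *PRSS12* 2402 and *DIPK1B* 7458. The library kit keeps the strand, and whether the counting used it is not given in the sources used here. If it did not, reads of the partner would be counted with the host. Strand cannot separate genes that share exons on the same strand. Such an overlap covered 5.92% of the exon length of *SNHG3* (with *RCC1*) and 14.01% of *SNHG4* (with *MATR3*). Over both lines *RCC1* averaged 29350 counts and *MATR3* 332.6. The part of these shared exons in the counts of *SNHG3* and *SNHG4* was not tested.

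The only member called higher, *SNHG11* (chr20:38446343-38450940, plus strand), carries SNORA60 and SNORA71E. It was at 680, 622 and 628 counts in MYC WT and 1195, 1293 and 1195 in MYC MUT. Every MYC MUT library was far above MYC WT. The MYC MUT mean was 1.91 times that of MYC WT on the fitted scale (log2 fold change 0.93, SE 0.10, adjusted p = 4.38e-05).

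The other box H/ACA hosts stayed short of a call in MYC MUT. *DANCR*, which hosts SNORA26, had MYC WT values of 8329 to 9304 and MYC MUT values of 5996 to 6393, so that the lines did not overlap. Its log2 fold change in MYC MUT, −0.49 (SE 0.066, adjusted p = 0.000188), lay just inside the fold threshold. *SNHG17*, which carries 5 SNORA71 genes, was at 1790 to 2332 counts in MYC WT and at 2730 to 2880 in MYC MUT (0.44, SE 0.11, adjusted p = 0.00889). *SNHG15*, the host of SNORA9, was steady at 3366 to 3695 counts in MYC WT and 3762 to 3963 in MYC MUT. MYC MUT was above MYC WT without overlap, by 0.14 on the log2 scale (SE 0.063, adjusted p = 0.0921), which did not pass the test. *SNHG9*, with SNORA78, ranged from 299.7 to 363 and from 301 to 343 counts, with overlap, and did not pass the test (−0.097, adjusted p = 0.562). *SNHG31* averaged only 30.1 counts, and its 0.58 in MYC MUT had an SE of 0.27 (adjusted p = 0.111). *SNHG27* had no reads.

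**Figure D3:**
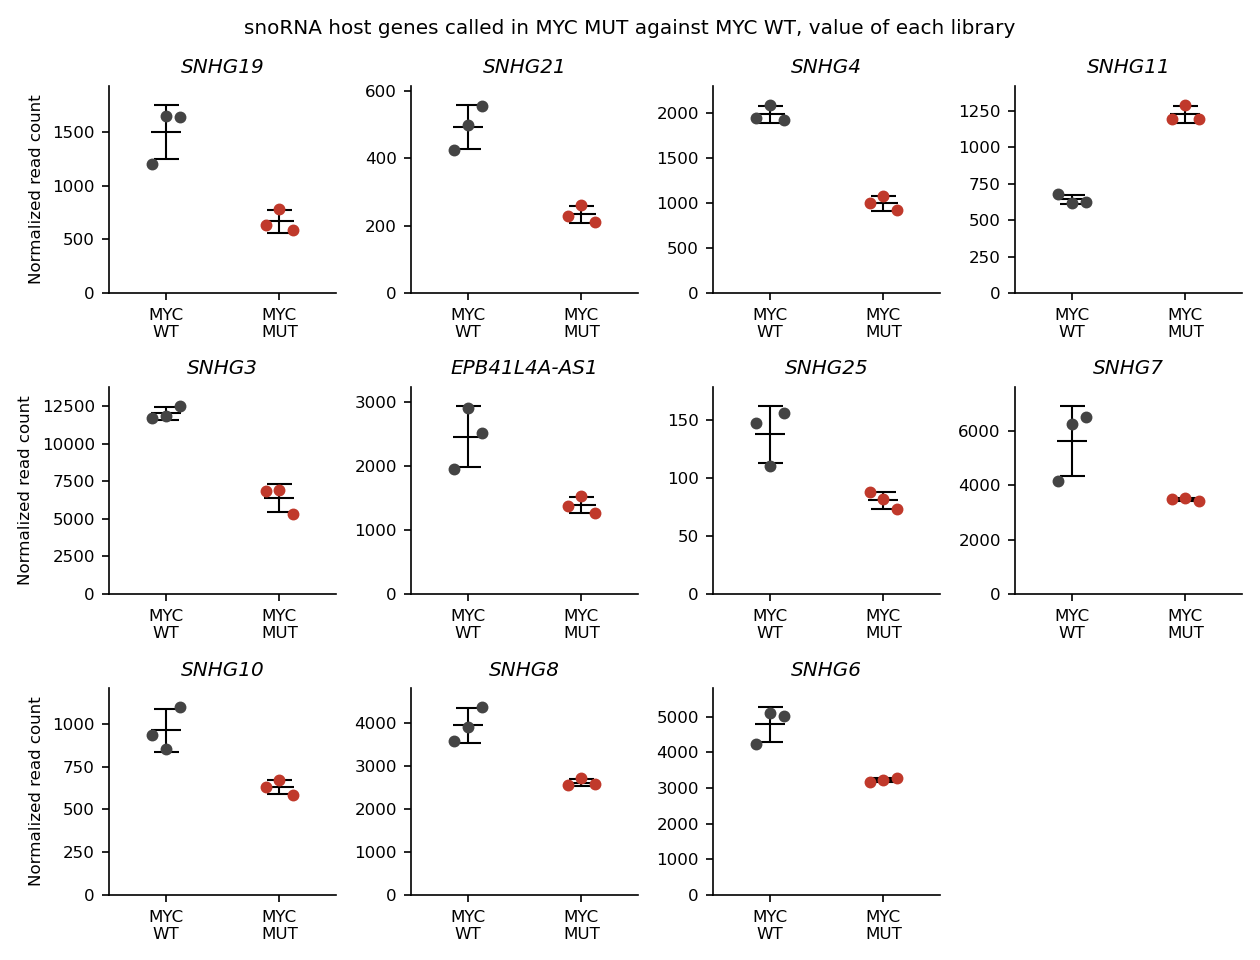
Normalized read count of each library for the 11 members called in MYC MUT against MYC WT, ordered by their absolute log2 fold change; bars show the mean and SD of 3 libraries, and each axis starts at 0. In 10 panels the MYC MUT points lie below every MYC WT point, and in the *SNHG11* panel they lie above.

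Among hosts of box C/D snoRNAs, 10 were tested and 2 were called lower in MYC MUT. *SNHG19* (chr16:2154792-2155405, minus strand), a short gene with SNORD60 and a TOP start, showed the lowest log2 fold change of any member. Its counts were 1206, 1654 and 1641 in MYC WT and 632, 787 and 586 in MYC MUT. The lowest MYC WT library, replicate 1, was well above the highest of MYC MUT. The count was 55.4% lower in MYC MUT (log2 fold change −1.16, SE 0.17, adjusted p = 0.000295).

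*SNHG6*, the host of SNORD87 on chromosome 8, was at 4226, 5109 and 5036 counts in MYC WT and 3172, 3238 and 3294 in MYC MUT. MYC MUT libraries were close together below all of MYC WT. The log2 fold change was −0.56 (SE 0.10, adjusted p = 0.0013). With libraries scaled to equal totals it was −0.49, inside the threshold. *MYC* is on the same chromosome, and 92 tested genes within 10 Mb of *SNHG6* had a median of −0.30 in MYC MUT. Less this median, *SNHG6* stood at −0.26. Of its exon length 58.9% overlaps that of *MCMDC2* on the other strand, which averaged 2.83 counts.

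*SNHG29*, the most abundant member, which carries SNORD49A, SNORD49B and SNORD65, was at 39909, 50936 and 50232 counts in MYC WT and 37918, 40225 and 42817 in MYC MUT. The lines overlapped through MYC WT replicate 1, and the log2 fold change was −0.21 (adjusted p = 0.131).

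*GAS5*, first found as a gene that rises in cells that stop growing, holds 10 box C/D snoRNAs and SNORA103 in the RefSeq table. Its counts were 12238, 13109 and 10721 in MYC WT and 11262, 10797 and 9667 in MYC MUT. The lines overlapped, and the log2 fold change was −0.18 (adjusted p = 0.114).

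*SNHG1*, which carries SNORD22 and SNORD25 to SNORD31, was at 11322, 11723 and 9886 counts in MYC WT and 9430, 8448 and 7049 in MYC MUT. MYC MUT was lower without overlap. It passed the adjusted p alone, at a log2 fold change of −0.41 (SE 0.12, adjusted p = 0.0211).

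*SNHG32*, which carries SNORD48 and SNORD52 and has a TOP start, was at 4604, 6821 and 5713 counts in MYC WT and 4901, 5334 and 5132 in MYC MUT. The MYC MUT values lay within the range of MYC WT, and the log2 fold change was −0.14 (adjusted p = 0.469). The remaining box C/D hosts were not called.

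*SNHG5*, the host of SNORD50A and SNORD50B, ranged from 15403 to 17289 counts in MYC WT and from 13103 to 14521 in MYC MUT. *SNHG16*, with SNORD1A, SNORD1B and SNORD1C, ranged from 9492 to 10473 and from 7058 to 7857. For both genes MYC MUT was below MYC WT without overlap. Both passed the adjusted p inside the fold threshold, *SNHG5* with a log2 fold change of −0.26 (adjusted p = 0.0169) and *SNHG16* with −0.44 (adjusted p = 0.000509). *SNHG30*, with SNORD7, ranged from 895 to 1181 and from 759 to 870 counts, and also passed the adjusted p alone (−0.41, adjusted p = 0.0457). *ZFAS1*, which holds the SNORD12 family and lies antisense to the start of *ZNFX1*, ranged from 3454 to 4002 and from 4057 to 4387. It was the one box C/D host in which MYC MUT was the higher line, at 0.17 above MYC WT (adjusted p = 0.138), which did not pass the test. *SNHG26*, with SNORD93, ranged from 132 to 166 and from 119 to 159 counts, with overlap, and did not pass (−0.058, adjusted p = 0.835).

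Members that hold scaRNAs and no named snoRNA were *SNHG10*, *SNHG20*, *SNHG21* and *SNHG22*. *SNHG21* (chr15:82750564-82757206, plus strand) was at 424, 500 and 555 counts in MYC WT and 230, 262 and 210 in MYC MUT. MYC MUT lay far below MYC WT, with no overlap. The log2 fold change was −1.07 (SE 0.14, adjusted p = 0.000176). Of the exon length of *SNHG21*, 72.9% is shared with another long noncoding gene of the same strand, ENSG00000252690, which stood at −0.35 in MYC MUT (SE 0.19, adjusted p = 0.163), so the split of reads between these genes is uncertain.

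*SNHG10* (chr14:95521943-95534889, minus strand), the host of SCARNA13, was at 934, 852 and 1100 counts in MYC WT and 632, 670 and 587 in MYC MUT. The lines did not overlap, and the log2 fold change was −0.60 (SE 0.11, adjusted p = 0.00117). *SNHG20* ranged from 1239 to 1706 counts in MYC WT and from 928 to 1083 in MYC MUT, and was lower by the adjusted p alone (−0.48, SE 0.13, adjusted p = 0.0151). Both genes share exon length with a more abundant gene. For *SNHG10* it was 5.54%, with *GLRX5* on the other strand (7356 counts). For *SNHG20* it was 7.56%, with *SEC14L1* on the same strand (7187 counts). The part of these overlaps in the counts was not tested. *SNHG22*, at a mean of 14.6 counts, did not pass the test (−0.099, SE 0.33, adjusted p = 0.835).

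*SNHG25*, *SNHG12* and *GAS5* hold snoRNAs of both boxes. *SNHG25* (chr17:64145937-64146476, plus strand), the shortest member, with SNORD104 and SNORA50C, was at 148, 110 and 156 counts in MYC WT and 87.8, 81.7 and 73.1 in MYC MUT. MYC MUT was below MYC WT without overlap, by a log2 fold change of −0.75 (SE 0.18, adjusted p = 0.0065). *SNHG12* spread from 1305 to 2004 counts in MYC WT and from 1029 to 1462 in MYC MUT, with overlap, and was not called (−0.35, SE 0.20, adjusted p = 0.176).

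By kind of hosted RNA, the median log2 fold change in MYC MUT was −0.49 for the 11 tested box H/ACA hosts, −0.34 for the 10 box C/D hosts, −0.54 for the 4 scaRNA hosts and −0.35 for the 3 hosts of both boxes, without a test between them. Among tested members with a promoter window, 2 of 6 with a TOP start and 6 of 18 without one were called lower in MYC MUT, with median log2 fold changes of −0.31 and −0.42. Of the 14 most abundant tested members by count 4 were called in MYC MUT, and of the 14 least abundant 7.

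Members that lie near each other were set beside the genes around them, because cultured HEK293T lines can differ in the copy number of chromosome segments. *SNHG11*, *SNHG17* and *ZFAS1* are all on chromosome 20, and the tested genes within 10 Mb of them had medians of 0.39, 0.39 and 0.36 in MYC MUT against MYC WT. Less these medians, *SNHG11* stood at 0.55, *SNHG17* at 0.057 and *ZFAS1* at −0.18. With the neighbour median taken off, 10 of the 11 called members stayed beyond 0.5, all but *SNHG6*, with no new p computed. Going the other way, *SNHG5* (−0.568) and *SNHG1* (−0.532), which had passed the adjusted p alone, then also lay beyond 0.5. Of the 11, 5 then stood further from 0, among them *SNHG4* at −1.17 and *SNHG19* at −1.3, and 6 nearer to it, among them *SNHG3* at −0.66, *SNHG21* at −0.95 and *SNHG25* at −0.68. Copy number was not measured in these files, and its part was not tested.

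**Figure D4:**
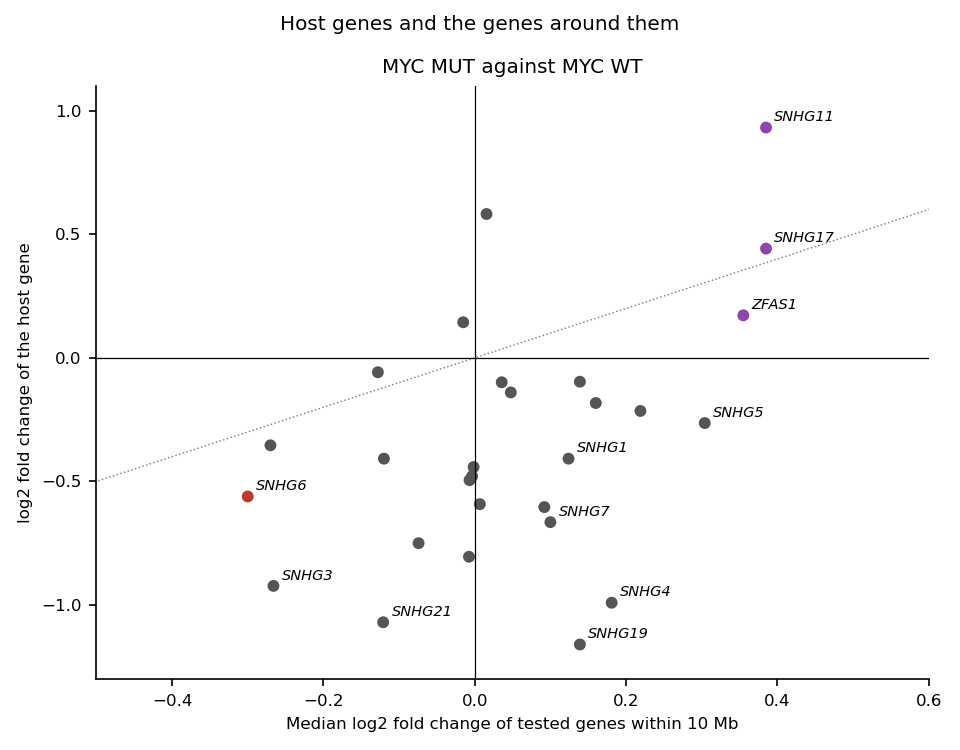
log2 fold change of each tested host gene against the median of the tested genes within 10 Mb of it, both for MYC MUT against MYC WT; purple points are on chromosome 20, the red point is *SNHG6* on chromosome 8, and the dotted line marks equal values. The chromosome 20 hosts share neighbour medians of 0.36 to 0.39, *SNHG6* has one of −0.30, and *SNHG4*, *SNHG19* and *SNHG21* lie far below the line.

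The snoRNAs themselves were scarcely read. Only snoRNA and scaRNA genes of GENCODE 44 that are among the genes listed in each library could be counted. Of these, 145 lie inside 31 of the members on the same strand, 84 of them in *SNHG14*. The member without any is *GAS5*, and SNORD50A of *SNHG5* and SNORD29 and SNORD31 of *SNHG1* are also not among the 145. Of all 145, 124 had no read in the 6 libraries and 11 averaged at least 10 normalized counts. Outside *SNHG14*, 9 of 14 genes that lie wholly in introns had reads, and 12 of 47 that lie in an exon of some host transcript. How a read that falls on both a host exon and a snoRNA was assigned is not given in the sources used here.

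Where snoRNAs had reads, the lines overlapped in the 6 hosts with the most of them. SNORA73B in *SNHG3* was at 284, 182 and 162 counts in MYC WT and 191, 192 and 185 in MYC MUT, so that it overlapped where *SNHG3* itself did not. SNORD104 in *SNHG25* was at 205, 131 and 194 in MYC WT and 178, 173 and 103 in MYC MUT, also with overlap. It was read more than its short host, at 150.1% of the host count over the 6 libraries. The 5 SNORA71 genes of *SNHG17* summed to 173, 128 and 113 in MYC WT and 170, 156 and 193 in MYC MUT. SCARNA13 in *SNHG10* was at 40.0, 66.2 and 78.0 in MYC WT and 38.8, 38.9 and 45.8 in MYC MUT. These low sums are a description of what poly(A)-selected libraries held, and mature snoRNAs, which carry no poly(A) tail, were not measured.

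**Figure D5:**
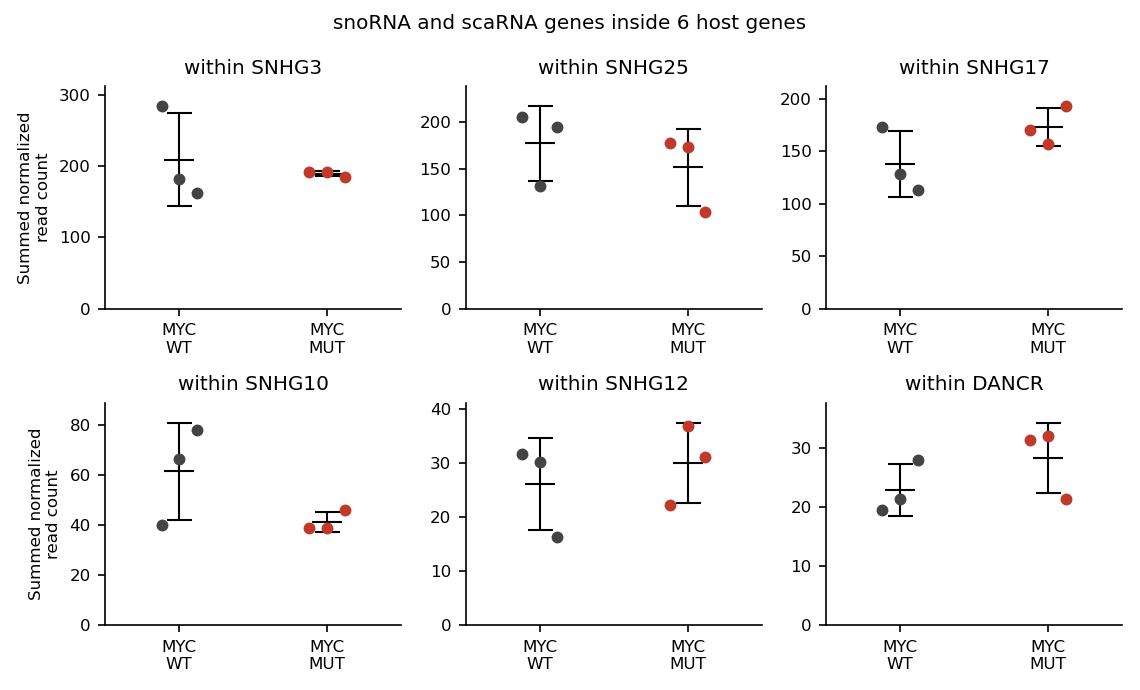
Summed normalized read count of the snoRNA and scaRNA genes inside the 6 host genes with the most such reads, 1 point per library with the mean and SD of each line, axes starting at 0. In each of the 6 panels the lines overlap.

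Genes that work with the hosts or their snoRNAs were described as lists, without a test of a list. Among all tested genes 10.1% were called lower and 11.3% higher. The lists of assembly factors and nonsense-mediated decay genes, at 10% called lower each, lay at that share. In the other lists, of 4 or 5 genes, any call was of a single gene. Of the 4 core proteins of box C/D particles, 1 was called lower in MYC MUT and 0 higher. That was *FBL*, fibrillarin, the methyltransferase itself, with a mean of 44957 ± 1627 (SD, n = 3) in MYC WT and 29359 ± 1370 in MYC MUT. Its log2 fold change in MYC MUT was −0.62 (SE 0.072, adjusted p = 7.72e-05). The 4 box H/ACA core proteins gave no call in limma, edgeR or DESeq2, with 1, *DKC1*, the pseudouridine synthase, lower by the adjusted p alone (−0.27, adjusted p = 0.0427) and none other at an unadjusted p under 0.05. The list medians were −0.14 and −0.11. Of 10 assembly factors 1 was called lower, the helicase gene *RUVBL2* (−0.59, SE 0.067, adjusted p = 6.2e-05), beside a list median of −0.05.

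Of 10 nonsense-mediated decay genes 1 was called lower, *SMG9* (−0.65, SE 0.094, adjusted p = 0.000309), with a list median of −0.15. Among 5 genes that bear on the translation of TOP mRNAs, *EIF4EBP1*, an inhibitor of translation initiation, was called lower (−0.84, SE 0.25, adjusted p = 0.0208), with a list median of −0.29. Of 5 genes of snoRNA trimming and intron decay 1 was called lower, *EXOSC10*, a nuclease of the nuclear exosome (−0.51, SE 0.07, adjusted p = 0.000221), a call that edgeR did not make. None of these 6 lists had a member called higher in MYC MUT by any of the 3 tools, where 2 nonsense-mediated decay genes were higher at an unadjusted p under 0.05 and no gene of the others was. These 2, *SMG6* (0.26, adjusted p = 0.0181) and *SMG8* (0.44, adjusted p = 0.0481), passed the adjusted p inside the fold threshold. On the lower side 3 of the same list did so, *UPF2* (−0.48, adjusted p = 0.0085), *UPF3A* (−0.27, adjusted p = 0.0225) and *UPF3B* (−0.32, adjusted p = 0.0135). Of the other lists, 2 assembly factors, 3 genes of TOP translation and 1 gene of trimming and intron decay were likewise lower by the adjusted p alone.

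Other snoRNA hosts were taken from the annotation as genes with a snoRNA or scaRNA, again among the genes listed, inside them on the same strand. Of 233 tested protein-coding hosts, 40 (17.2%) were called lower and 9 (3.86%) higher in MYC MUT, with a median of −0.11. The largest changes in MYC MUT were in weakly read genes. *NALF1* averaged 0.748 counts in MYC WT and 46.5 in MYC MUT, *ST8SIA2* 6.2 and 63.5, *FGF12* 61.2 and 375, and *N4BP2L1* 94.0 and 9.55. All but *FGF12* averaged under the minimum of 10 in a single line. Of 11 tested long noncoding hosts outside the list, 2 were called lower and 3 higher in MYC MUT. *TMEM161B-DT* was the more abundant of those that fell, from 810 ± 12.4 to 408 ± 37.0 counts (log2 fold change −0.99, SE 0.10, adjusted p = 3.07e-05). *SCARNA9*, ENSG00000262202 and ENSG00000253256 rose from means of 5.63, 8.73 and 10.1 to 21.9, 20.4 and 22.0 counts. The first of these has the symbol of a scaRNA itself, and is listed because the annotation types it as a long noncoding gene. *SCARNA9* and ENSG00000262202 were under the minimum of 10 in MYC WT and passed it in MYC MUT. DESeq2 called 2 genes of this list higher. The share called lower was thus 35.7% among the SNHG-type members, 17.2% among protein-coding hosts, 18.2% among the other long noncoding hosts and 10.1% among all tested genes. The shares called higher were 3.57%, 3.86%, 27.3% and 11.3%. Of these, the 27.3% stands for 3 of 11 genes, all 3 at low counts. The shares called lower or higher were not tested against each other.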

How the data were processed

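Poly(A) RNA-seq with 3 libraries per line was analysed for MYC WT and MYC MUT, and other assays of the series were not used here. The authors aligned reads of stranded, poly(A)-selected libraries to hg38 with bwa mem, an aligner that is not splice-aware, then removed duplicates and normalized the counts with DESeq2. The counting tool is not given in the sources used here. The deposited signal is a normalized count per gene, from which whole reads were recovered for 100% of values (within 0.05 of a whole number), 68170323 to 79913764 reads per library. IDs were matched to GENCODE 44 (57754 of 58336).

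Values were tested as log2(normalized count + 1) with limma 3.58.1 (eBayes with a trend, one model of 9 libraries, of which 3 are not reported here). The 20884 genes that averaged 10 or more over these libraries were tested. P-values were adjusted by Benjamini-Hochberg over all of them, and called genes had both an adjusted p below 0.05 and more than 0.5 of log2 change. Fold changes are on the log2(count + 1) scale and understate the change of low genes. edgeR 4.0.16 and DESeq2 1.42.0 were run on the recovered reads as alternatives, with other scalings, pseudocounts, minimum counts and samples. The fits were tested on simulated data. Replicates of both lines differed by more than counting noise. With 3 against 3 libraries a permutation test of a single gene cannot go below 0.10, so none was used.

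Members were named without exception. Values per library are given for those called in MYC MUT and for the 4 most abundant per kb of exon, and of each gene list up to 4 called in MYC MUT are named. The members and lists were chosen with earlier results of these data known.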

Additional observations from a re-analysis of the deposited data

How the results depend on the processing

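The number of called members in MYC MUT against MYC WT, 11, stayed within 1.5 times under other pseudocounts, minimum counts, scalings, edgeR, DESeq2, a fit of these 6 libraries alone and the neighbour median. For the neighbour median only the 11 called members were counted, so *SNHG5* and *SNHG1*, which then passed 0.5, are left out. Without the fold threshold the count was 18, and at more than 1 of log2 change only 2 remained called, which follows from the thresholds. Leaving out 1 library gave 11 to 14. The split by direction was not the same throughout. With libraries scaled to equal totals 9 members were called lower and 2 higher. Without MYC WT replicate 1 these were 12 and 2, so that *SNHG11* was not the only member called higher. Under the alternatives run, 10 of the 11 calls held, and the called members kept their direction. *SNHG6* lost its call with libraries scaled to equal totals (−0.49) and with the neighbour median taken off (−0.26). The median log2 fold change of the tested members ranged from −0.45 to −0.33.

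With the replicate block the count of calls was again 11, and the paired fit changed no call of a member. Samples of MYC WT and MYC MUT share only a number (correlations of 0.049 to 0.328, with 3 of 6 samples correlating best with their own number).

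Among members at a low count, *SNHG22*, *SNHG26* and *SNHG31* had standard errors of 0.19 to 0.33 on the log2 scale, and *SNHG31* did not pass the test at 0.58, while *SNHG25* did at −0.75. *SNHG12*, at a higher count, had a standard error of 0.20.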
